A study of Rattus norvegicus with 12 samples.

Results

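The genes described here are 38 rat genes whose RNA levels differed widely between epileptic animals and little between control animals, in both sublayers of hippocampal area CA1. They were chosen from 32662 Ensembl gene identifiers. Levels were set as CPM, gene counts scaled to a common library total (1e+06), with ENSRNOG00000043866 and ENSRNOG00000030478 left out of the library totals. These 2 identifiers held 8.24 to 22.8% and 2.33 to 5.94% of the gene counts. A gene was taken when its mean CPM was at least 8 and the standard deviation (SD) of log2(CPM + 1) was at least 0.8 over the 3 epileptic rats and below 0.3 over the 3 control rats, in deep and in superficial CA1 alike. Of 9917 genes with a mean CPM of at least 8, 98 reached the epileptic minimum in deep and 195 in superficial libraries, 91 in both, and 38 of these 91 (41.8%) were also stable in control rats. The rule used the values of all 12 libraries, so the spread between animals, the order of the animals and the distance from controls are descriptions without a test.

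RNA was sequenced from the CA1 pyramidal cell layer of male Wistar rats, labelled as adults of 45 to 50 days and 180 to 200 g. This age and weight may be those at treatment rather than at sampling. Epileptic rats had been given repeated intraperitoneal doses of 5 mg/kg kainate until seizures had run on for over 30 min, were then treated with 4 mg/kg diazepam, and were sampled 6 to 8 weeks later. Control rats had received vehicle, saline or DMSO, with otherwise similar handling. Cell bodies of the deep and of the superficial sublayer were collected apart by laser from each of 3 epileptic and 3 control rats, which gave 4 groups of 3 libraries: deep control, superficial control, deep epileptic and superficial epileptic.

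Kainate is an agonist of ionotropic glutamate receptors. Rats that survive a status epilepticus evoked by it go on to have spontaneous seizures, and the loss of neurons and the reaction of glial cells in the hippocampus are known to differ in extent between animals. Superficial pyramidal cells lie towards the stratum radiatum and deep ones towards the stratum oriens, and they differ in connections and in gene expression. The files do not pair the identifiers with gene names, and 0 of 32662 could be matched to a symbol, so no function is given for a member and the labelled cell layer could not be checked against its marker genes. In libraries of microdissected tissue, fewer cells of a type and less RNA per cell cannot be told apart. The sources used here do not say whether counting used the strand, so overlapping, antisense or near-identical genes may share reads.

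The libraries held 16135358 to 25893962 gene counts, at most 19550582 in control and at least 20623196 in epileptic rats. The share of alignments outside annotated exons was 35.8 to 44.0% in the 6 control libraries and 43.0 and 37.7% in the deep and superficial library of epileptic animal 1. It was 26.7 and 25.3% in animal 2 and 22.3 and 25.6% in animal 3. Alignments to more than 1 place made up 25.2 to 34.8% in control libraries and in animal 1, and 37.9 to 45.6% in animals 2 and 3. Animals 2 and 3 are also those in which most members were high, and the part of these library differences in the results was not tested.

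Between control rats the members were as even as the rule asked. Their median SD of log2(CPM + 1) was 0.19 in deep and 0.17 in superficial control libraries, against 0.10 and 0.09 over the 9917 genes. Between epileptic rats it was 0.98 and 1.43, against 0.16 and 0.14 over the 9917 genes. In CPM, the highest epileptic animal exceeded the lowest by a median of 4.37 times in deep libraries (range 3.24 to 105) and 8.26 times in superficial libraries (3.25 to 610). The corresponding medians between control animals were 1.35 and 1.33 times. With the conditions exchanged, 5 of the 9917 genes reached an SD of 0.8 between control rats in both sublayers, and 0 of them lay below 0.3 between epileptic rats.

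**Figure D1:**
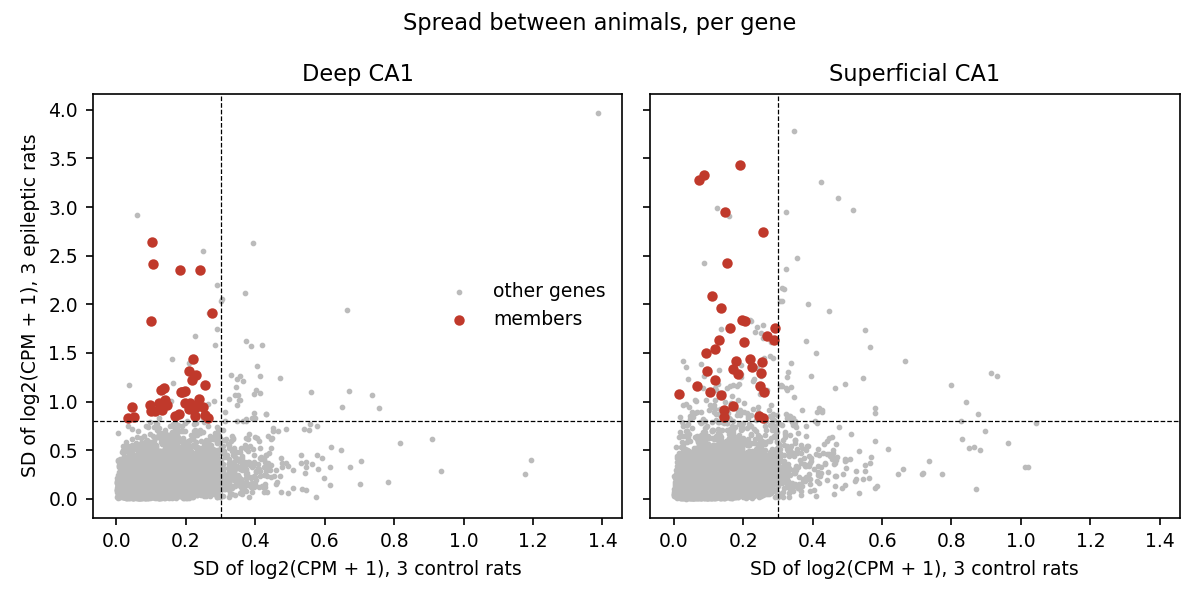
Spread between animals for each of 9917 genes with a mean CPM of at least 8, as the SD of log2(CPM + 1) over 3 control rats (horizontal) and 3 epileptic rats (vertical), in deep (left) and superficial CA1 (right). Dashed lines mark the limits of 0.3 and 0.8, and the 38 members (red) lie in the upper left field of both panels, reaching 2.64 in deep and 3.44 in superficial epileptic libraries.

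The members nearest inside the epileptic minimum had an SD of 0.83 in deep (ENSRNOG00000020684) and 0.84 in superficial libraries (ENSRNOG00000004110), and the nearest genes that failed on that limit alone had 0.80 (0.799) and 0.79. The members nearest inside the control limit had 0.27 in deep and 0.29 in superficial libraries, and the nearest genes outside had 0.30 (0.302) and 0.30 (0.305). At the limit of 8 on the mean CPM, the nearest values were 8.28 inside and 7.73 outside.

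The order of the epileptic animals was the same in deep and superficial CA1 for 38 of the 38 members, compared with 48.0% of the 9917 genes. The sublayers of a rat come from 1 brain, so these are not separate observations. In 33 members animal 1 was lowest, animal 2 in the middle and animal 3 highest in both sublayers, an order found in 15.5% of the 9917 genes. The order 2, 3, 1 from lowest to highest held for 1 member (4.75% of the 9917 genes), the order 3, 1, 2 for 3 members (4.77%) and the order 3, 2, 1 for 1 member (15.2%). The 53 genes variable between epileptic rats in both sublayers but not stable between control rats mostly kept their order too, in 48 cases (90.6%). Of these 53 genes, 40 had the order 1, 2, 3 and 5 the order 3, 2, 1. A shared order in both sublayers is therefore not particular to the members. Among the members the animal farthest from the middle one in both sublayers was animal 3 in 24 cases, animal 1 in 10 and animal 2 in 0, where the shares of the 9917 genes were 24%, 20.6% and 6.04%. The 10 cases of animal 1 are 26.3% of the members, near that background.

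Relative to controls, animal 3 lay farthest from the control mean by the median over members, while animal 2 was outside the control range at least as often. The level of animal 3 was above all 3 controls in both sublayers for 32 members and below them for 3, while 25.6 and 29.7% of the 9917 genes were so placed. Animal 2 was above the controls in both sublayers for 34 members and below for 3, against 23.3 and 26% of the 9917 genes. Animal 1 was above the controls in both sublayers for 13 members, below for 7 and within their range for 8, where 18.1, 15.9 and 17.9% of the 9917 genes were. The median distance of a member from its control mean, on the log2(CPM + 1) scale, was 0.13, 0.90 and 1.94 in the deep libraries of animals 1, 2 and 3 and 0.24, 1.58 and 3.05 in their superficial libraries. Over the 9917 genes the same medians lay between −0.02 and 0.01.

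**Figure D2:**
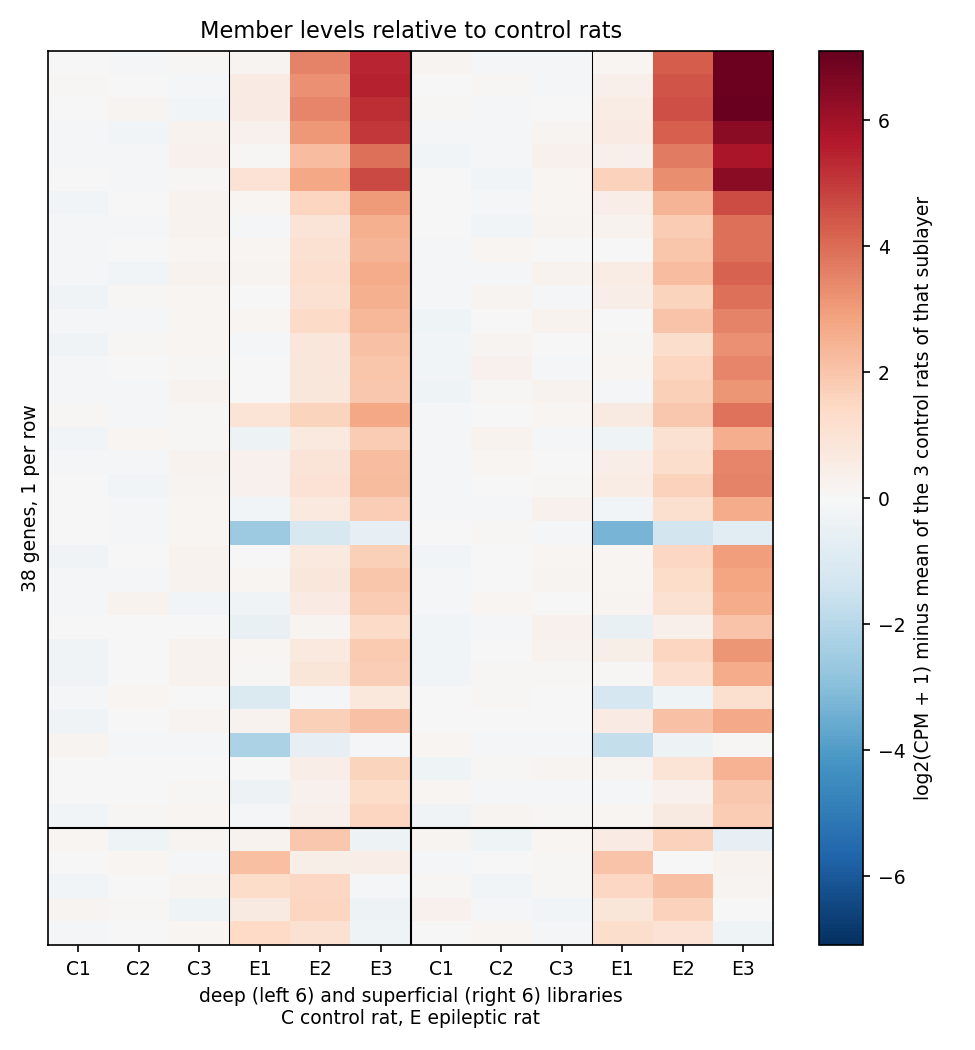
Levels of the 38 members (rows) in 12 libraries (columns, C control and E epileptic rats by number, deep on the left and superficial on the right), as log2(CPM + 1) minus the mean of the 3 control rats of that sublayer. The 33 rows above the line have the order animal 1 below 2 below 3, most of them with the strongest red in animal 3, and the 5 rows below the line have other orders.

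In 4 members RNA was close to absent in control rats, below 1 CPM and at 0 to 9 counts in each of the 6 control libraries. For ENSRNOG00000043451, which had the largest spread between epileptic rats, deep control libraries had 0.389, 0.256 and 0.442 CPM and superficial control libraries 0.288, 0 and 0.0650 CPM. Epileptic animals 1, 2 and 3 had 0.532, 14.8 and 55.8 CPM in deep and 0.224, 21.3 and 136 CPM in superficial libraries. Animal 1 was thus near the control level and the other epileptic animals were far above it. Of ENSRNOG00000000451, control libraries held 0.0650 to 0.324 CPM, and epileptic animals 1, 2 and 3 held 0.887, 10.8 and 52.7 CPM in deep and 0.448, 24.1 and 139 CPM in superficial CA1. For this gene animal 1 lay above all controls in both sublayers, at 15 and 8 counts. ENSRNOG00000032708 had 0 to 0.368 CPM in control libraries and, in animals 1, 2 and 3, 0.414, 8.64 and 35.4 CPM in deep and 0.559, 18.9 and 87.8 CPM in superficial CA1. ENSRNOG00000032844 had 0.0631 to 0.576 CPM in control libraries and 1.06, 14.2 and 51.1 CPM in deep and 0.615, 26.2 and 144 CPM in superficial epileptic libraries. In both genes animal 1 was above all controls in both sublayers, at 7 to 18 counts, and far below animals 2 and 3. Across these 4 genes the level in animal 3 was 3.59 to 4.86 times that in animal 2 in deep and 4.66 to 6.42 times in superficial libraries. They were named after their values were seen, for their low control levels.

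The other 29 members with the order 1, 2, 3 were expressed in control rats, at 0.505 to 566 CPM. Their highest epileptic animal exceeded the lowest by a median of 4.30 times in deep and 8.38 times in superficial libraries. ENSRNOG00000007457 had 1.23, 1.09 and 1.40 CPM in deep and 0.748, 0.505 and 0.844 CPM in superficial control libraries. Its epileptic levels were 3.61, 13.8 and 56.7 CPM in deep and 4.20, 15.4 and 142 CPM in superficial libraries of animals 1, 2 and 3. All 3 epileptic animals lay above the controls for this gene, with animal 3 standing far from the others. ENSRNOG00000046452 had 1.69 to 2.65 CPM in deep and 1.45 to 1.82 CPM in superficial control libraries. Its epileptic levels were 2.48, 8.11 and 24.7 CPM in deep and 2.57, 13.02 and 63.4 CPM in superficial CA1. Its deep level in animal 1 was within the control range and its superficial level above it.

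ENSRNOG00000005195 was the most abundant member, with a mean of 713 CPM and 5422 to 36274 counts a library, so that counting error is small for it. Control libraries had 449, 566 and 410 CPM in deep and 327, 386 and 352 CPM in superficial CA1. Epileptic animals 1, 2 and 3 had 390, 707 and 1614 CPM in deep and 411, 752 and 2188 CPM in superficial CA1. The deep level of animal 1 was below the lowest control, and animals 2 and 3 were above the highest control in both sublayers.

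In 7 members, all with the order 1, 2, 3, animal 1 lay below every control in both sublayers. This is 18.4% of the members, near the 15.9% of the 9917 genes. For ENSRNOG00000021067, 1 of these 7, all 3 epileptic animals lay below every control. Its control levels were 12, 10.6 and 13.1 CPM in deep and 25.6, 27.3 and 23.7 CPM in superficial libraries, and epileptic animals 1, 2 and 3 had 1.18, 4.95 and 7.48 CPM in deep and 1.73, 9.60 and 14.5 CPM in superficial libraries. Animal 3, the highest of the epileptic rats for this gene, was the one nearest to the controls. In ENSRNOG00000045558 the epileptic animals lay on both sides of the controls. Control levels were 15.6 to 17.9 CPM in deep and 29.0 to 31.7 CPM in superficial CA1, and epileptic levels were 7.51, 15.2 and 28.6 CPM in deep and 12.7, 23.7 and 66.5 CPM in superficial CA1. Group means were 16.5 ± 1.21 in control and 17.1 ± 10.7 CPM in epileptic deep libraries (SD, n = 3 each).

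Only 5 of the 38 members had another order of the epileptic animals. ENSRNOG00000008697 was the single member with animal 1 far above the rest, at 833 CPM in deep and 811 CPM in superficial libraries. Animals 2 and 3 had 255 and 257 CPM in deep and 199 and 242 CPM in superficial libraries, and controls had 172 to 204 CPM in deep and 184 to 213 CPM in superficial libraries. This gene was well counted, with 2341 to 14492 counts a library.

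In 3 members animal 2 was highest and animal 3 lowest. ENSRNOG00000010635 had 15.9, 51.9 and 9.97 CPM in the deep libraries of animals 1, 2 and 3 and 30.3, 62.5 and 12.8 CPM in the superficial ones, with 10.4 to 14.7 CPM in deep and 15.9 to 22.5 CPM in superficial controls. Animal 3 was below and animals 1 and 2 were above the controls in both sublayers. ENSRNOG00000004110 had 23.8, 44.6 and 11.4 CPM in deep and 28.7, 50.8 and 15.3 CPM in superficial epileptic libraries, against control ranges of 12.1 to 17.3 and 13.6 to 19.2 CPM. ENSRNOG00000005956 had 19.5, 22.5 and 6.74 CPM in deep and 18.02, 28.0 and 6.94 CPM in superficial epileptic libraries, against 6.49 to 8.61 and 4.99 to 6.39 CPM in controls. For ENSRNOG00000004110 and ENSRNOG00000005956 animal 3 lay near the control level and animals 1 and 2 above it.

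In the remaining member, ENSRNOG00000004828, animal 1 was highest and animal 3 lowest. Its epileptic levels were 13.4, 10.4 and 3.44 CPM in deep and 20.2, 17.1 and 6.21 CPM in superficial CA1. Control levels were 4.02 to 4.86 CPM in deep and 7.02 to 8.77 CPM in superficial CA1, so that animal 3 lay below all controls and animals 1 and 2 lay above them in both sublayers.

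**Figure D3:**
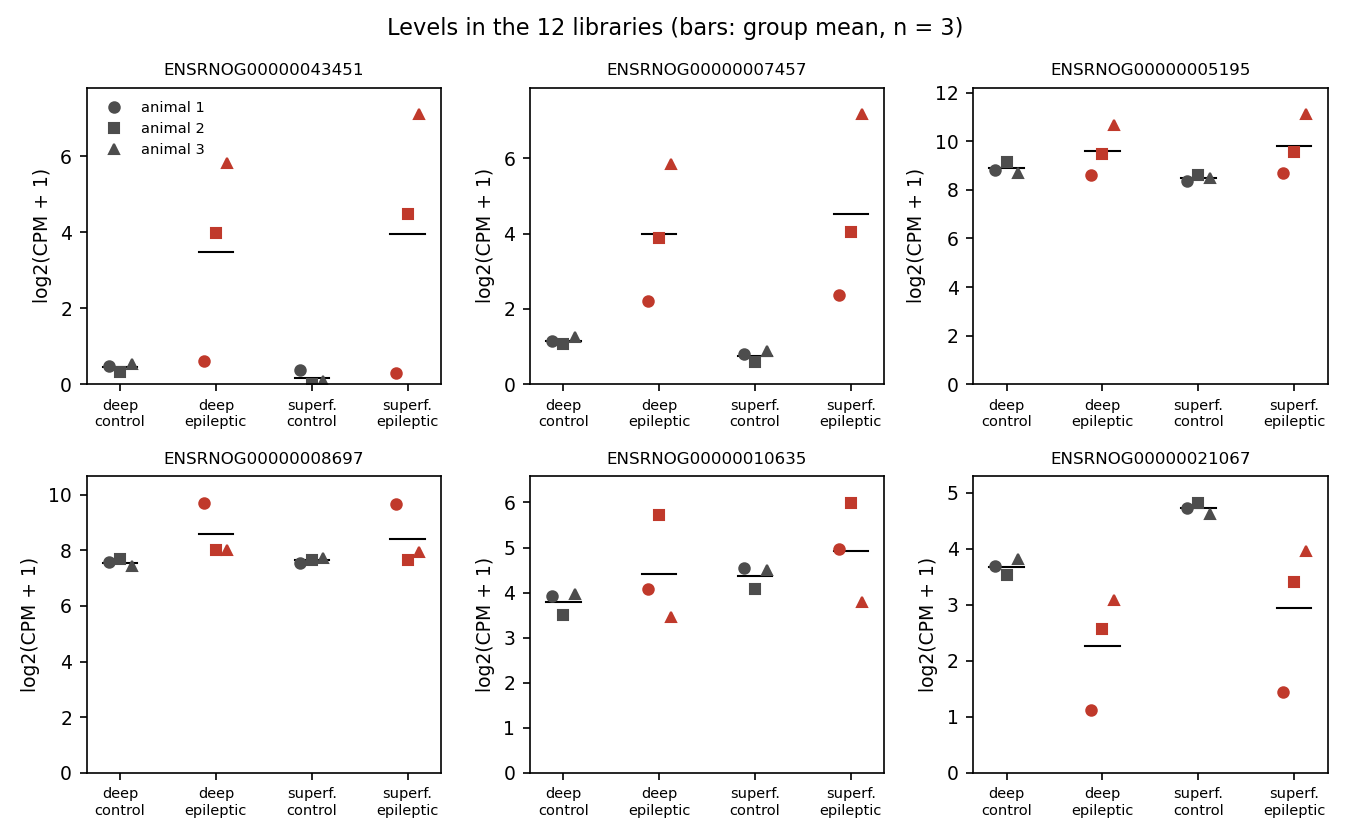
Levels of 6 members as log2(CPM + 1) in the 4 groups of 3 libraries, control rats in grey and epileptic rats in red, with 1 symbol per animal number (control and epileptic animals of a number are different rats) and bars at the group means. Control points lie close together in all panels, while epileptic animal 3 (triangle) is highest in the upper row, animal 1 (circle) in ENSRNOG00000008697 and animal 2 (square) in ENSRNOG00000010635.

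The comparison of epileptic with control rats called no member in either sublayer. This contrast holds the values that chose the members, and nothing is read from it or from the counts that follow. Animal 1 was the lowest epileptic animal in 33 members, so leaving it out also acts on the values that chose them. With edgeR's quasi-likelihood test and Benjamini-Hochberg adjustment, 0 of 36 members tested were called in deep CA1, where 0% of all 14261 genes tested were, and 0 of 35 in superficial CA1, where 0.0140% of 14321 were. At an unadjusted p below 0.05 there were 25 members in deep (13.7% of all genes) and 21 in superficial CA1 (18.9%). DESeq2 called 9 of 38 in deep (1.69% of all genes) and 12 of 38 in superficial CA1 (4.11%), and a block for the animal number led edgeR to 1 call among 36 in deep CA1 (1.68%). Without epileptic animal 1 edgeR called 26 of 38 (3.82% of all genes) and 25 of 38 (9.96%), and without animal 3 it called 3 of 36 in deep (1.91%) and 3 of 35 in superficial CA1 (2.84%). All 3 epileptic levels lay above all 3 control levels for 11 members in deep (8.15% of the 9917 genes) and 16 in superficial CA1 (11.4%), and below them for 2 (9.70%) and 1 (13%).

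The rule did not use the difference between the sublayers within each rat, but it used the levels from which that difference is taken. The limit on the mean CPM can favour genes high in any library. The members' median was 6.92 CPM over control libraries, and 38.7 CPM in the deep and 69.8 CPM in the superficial library of epileptic animal 3. The sublayer results are therefore not independent of the choice of members. In epileptic animals 2 and 3 most members were higher in superficial than in deep CA1, while in animal 1 fewer were higher than lower. The median of superficial minus deep over the 38 members, on the log2(CPM + 1) scale, was −0.05, 0.38 and 0.90 in epileptic animals 1, 2 and 3. In control rats it was −0.20, −0.17 and −0.30. Over the 9917 genes the medians lay between −0.03 and 0.02 in all 6 rats. Superficial exceeded deep for 17, 34 and 37 of the 38 members in epileptic animals 1, 2 and 3 (46.9, 49.1 and 56.3% of the 9917 genes), and for 8, 11 and 11 members in control animals 1, 2 and 3 (46.9, 44.0 and 47.7%).

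**Figure D4:**
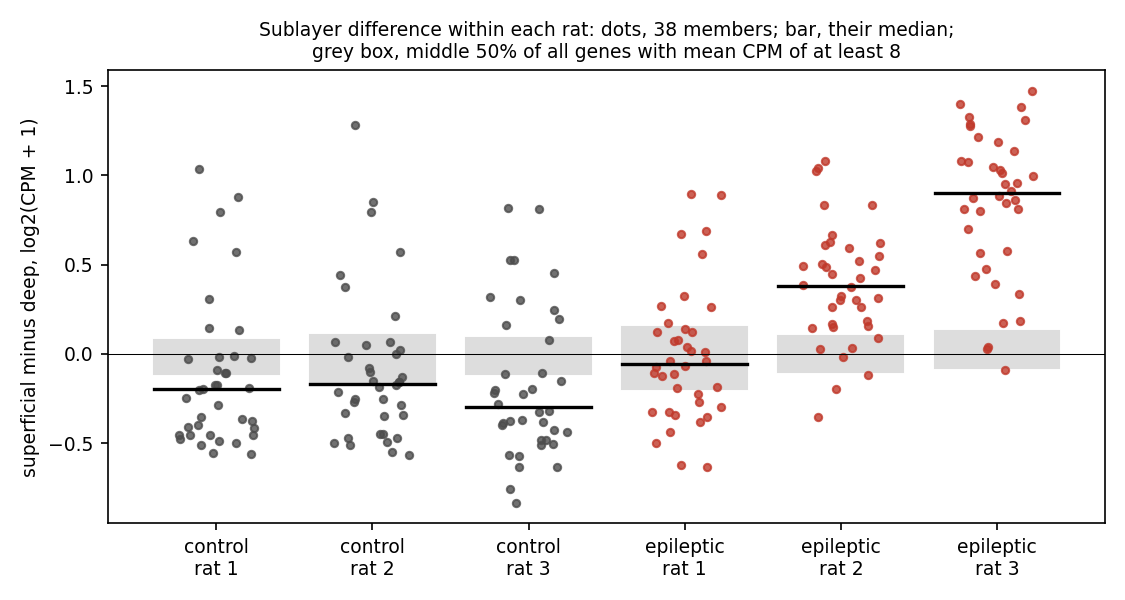
Superficial minus deep level within each of the 6 rats, as log2(CPM + 1), for the 38 members (dots, with a bar at their median), beside the middle 50% of the 9917 genes (grey). The median is below 0 in the 3 control rats and in epileptic animal 1 and reaches 0.38 and 0.90 in epileptic animals 2 and 3.

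Within epileptic rats, 23 of the 38 members differed between the sublayers by edgeR's quasi-likelihood test with each rat as a block, all 23 of them higher in superficial CA1. The share called over all 14791 genes tested was 10% (1484 genes), and 5.04% were called higher in superficial CA1. The median log2 fold change, superficial over deep, was 0.54 for the members and 0.02 for all genes, and 36 of 38 were positive. At an unadjusted p below 0.05 there were 29 members (25.9% of all genes). ENSRNOG00000032708 had the smallest p. Its superficial and deep levels in CPM were 0.559 and 0.414 in animal 1, 18.9 and 8.64 in animal 2 and 87.8 and 35.4 in animal 3, and the log2 fold change was 1.20 with an SE of 0.11 (adjusted p = 2.613e-05 by edgeR). Superficial was higher in 3 of 3 animals, but in animal 1 only at 10 against 7 counts, too few to give a direction. Over the 38 members, superficial exceeded deep in all 3 epileptic animals for 17 (23.4% of the 9917 genes) and in all 3 control animals for 7 (23%), and deep exceeded superficial in all 3 epileptic animals for 1 (22.3%) and in all 3 control animals for 24 (30.2%). ENSRNOG00000045558 was higher in superficial epileptic CA1 by 0.91 (SE 0.10, adjusted p = 5.336e-05 by edgeR), also in 3 of 3 animals. The 4 members close to absent in controls were all called, with log2 fold changes of 0.92 to 1.21 (edgeR adjusted p-values of 2.613e-05 to 0.008781). In animal 1, however, superficial was lower than deep for 3 of them. These 4 members met the rule's limit on the mean CPM through epileptic animals 2 and 3. In superficial libraries they had 0.224 to 0.615 CPM in animal 1 and 87.8 to 144 CPM in animal 3. Their calls are therefore not independent of the choice of members. Among the other 34 members 19 were called, and 32 had a positive log2 fold change. Some of these 34 also had low control levels, such as ENSRNOG00000007457 (0.505 to 1.40 CPM) and ENSRNOG00000046452 (1.45 to 2.65 CPM). Both were called, and they too met the limit on the mean CPM through epileptic animals 2 and 3. The counts for the 34 are therefore not independent of the choice of members either. All 38 members passed the filter on low counts in this test. Without epileptic animal 3 the number called was 13, with 15.0% of all genes called, and the members' median log2 fold change was 0.22. Without animal 1 it was 26 (6.97% of all genes) and without animal 2 it was 18 (3.59%). DESeq2 called 13 (3.38%), and a fit of the epileptic libraries alone called 13 (5.03%).

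In control rats 9 of the 38 members differed between the sublayers (8.44% of all genes tested), 6 higher in superficial (4.26%) and 3 higher in deep CA1 (4.18%). The median log2 fold change was −0.36 for the members against 0.01 for all genes, and 10 of 38 were positive. At an unadjusted p below 0.05 there were 16 members (22.8% of all genes). ENSRNOG00000021067 was higher in superficial control CA1, at 25.5 ± 1.78 against 11.9 ± 1.25 CPM (SD, n = 3), or 1.14 on the log2 scale with an SE of 0.11 (adjusted p = 1.232e-05 by edgeR). It kept that direction in epileptic rats at 0.90 (SE 0.14, adjusted p = 0.0009535 by edgeR), where both sublayers had less of it. ENSRNOG00000045558 had 30.1 ± 1.44 CPM in superficial and 16.5 ± 1.21 CPM in deep control libraries (SD, n = 3), or 0.90 on the log2 scale with an SE of 0.10 (adjusted p = 4.632e-05 by edgeR), nearly the value it had in epileptic rats. In the other direction, ENSRNOG00000005195 was higher in deep control CA1, at 475 ± 81.0 against 355 ± 29.6 CPM (SD, n = 3), or −0.37 on the log2 scale with an SE of 0.07 (adjusted p = 0.003226 by edgeR). ENSRNOG00000025691 was also higher in deep control CA1, by −0.60 on the log2 scale with an SE of 0.14 (adjusted p = 0.01463 by edgeR). Its means were 10.5 ± 1.43 CPM in deep and 6.69 ± 1.21 CPM in superficial controls (SD, n = 3). The count of 9 was 3, 3 and 5 without control animal 1, 2 or 3, when 2.81, 2.76 and 2.79% of all genes were called. It was 15 without epileptic animal 1 (13.3% of all genes) and 15 without epileptic animal 3 (14%), so the members' count moved with that of all genes.

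**Figure D5:**
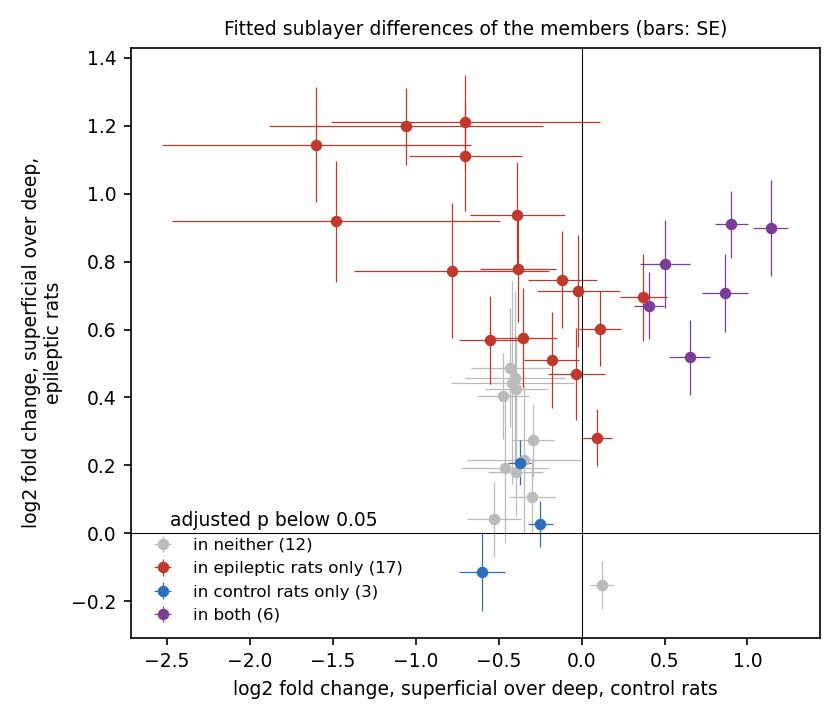
Fitted log2 fold change, superficial over deep, of the 38 members in control rats (horizontal) and epileptic rats (vertical), with bars of 1 SE, from edgeR with each rat as a block. Colours give the comparisons in which a member had an adjusted p below 0.05: 17 in epileptic rats only, 3 in control rats only, 6 in both and 12 in neither, and 27 members lie in the upper left field.

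The sign of the fitted sublayer difference was negative in control and positive in epileptic rats for 27 of the 38 members, positive in both for 9, negative in both for 1 and positive then negative for 1. The 4 members close to absent in controls are among the 27, but with 0 to 9 counts a control library their control values had SEs of 0.81 to 0.99 and give no direction. Without them the split of 34 members was 23, 9, 1 and 1, and the median log2 fold change was −0.32 in control and 0.50 in epileptic rats. The interaction of sublayer and condition was tested directly, and it called 0 of the 38 (0% of all 14791 genes) by edgeR, so the 17 members called in epileptic rats only are not shown to differ between the conditions. At an unadjusted p below 0.05 there were 26 of 38 members, compared with 6.60% of all genes tested, and 34 of 38 had a positive difference (median 0.62, against −0.01 for all genes). Without the 4 members these were 22 and 30 of 34, with a median of 0.57. ENSRNOG00000005195 had the smallest p among the members, with an interaction of 0.58 on the log2 scale (SE 0.10, adjusted p = 0.131 by edgeR). Its superficial minus deep values on the log2(CPM + 1) scale were −0.46, −0.55 and −0.22 in control animals and 0.08, 0.09 and 0.44 in epileptic animals, so the groups did not overlap. Such a placing, with deep higher in all 3 control and superficial higher in all 3 epileptic rats, held for 6 members (1.28% of the 9917 genes), and the reverse held for 0 (0.575%). Some of these 6 members had only small differences in epileptic rats. ENSRNOG00000023708 followed with 1.12 (SE 0.23, adjusted p = 0.2953 by edgeR). It had −0.45, −0.51 and −0.50 in control animals and −0.12, 0.43 and 0.91 in epileptic animals. DESeq2 called 1 member (0.00844% of all genes). Without epileptic animal 1 edgeR called 11 members (0.563% of all genes called), and without animal 3 it called 1 (0.0810%).

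The choice of members itself depended on the animals included, and most of all on epileptic animal 3. Without epileptic animal 3 the rule, with the SD over the remaining pair, found 8 genes, of which 3 were among the 38. Without animal 2 it found 89 genes, 34 of them among the 38, and without animal 1 it found 33 genes, 23 of them among the 38. Without control animal 1 it found 53 genes (32 of the 38), without control animal 2 it found 37 (26 of the 38) and without control animal 3 it found 66 (35 of the 38).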

How the data were processed

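The deposited values are raw read counts per Ensembl gene identifier, whole numbers without normalization in 1 table per library, per the labels. STAR 2.5.0c, HTSeq 0.6.1, SAMtools 0.1.19 and FastQC 0.11.3 with the build Rnor_6.0 are listed in the submitters' processing notes, without settings. Library sizes and tests excluded the 5 summary tallies, so that 28.6 to 35.1% of the tallied alignments of a library entered as gene counts. Libraries were grouped by sublayer and condition from their titles. Members and lists were chosen with earlier results of these data known. The cell type and pathway lists and the promoter motifs fixed for this work need gene names and were not analysed here.

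Counts were fitted over all genes in R 4.3.3 with edgeR 4.0.16 (filterByExpr with a minimum count of 10 and a minimum total of 15, TMM scaling, robust quasi-likelihood test, Benjamini-Hochberg adjustment, threshold 0.05). Sublayers were compared in 1 model of 12 libraries with a term for each rat, and epileptic with control rats in the 6 libraries of a sublayer. DESeq2 1.42.0 was an alternative. The SE is the absolute log2 fold change divided by the square root of F, an approximation. The scripts were tested on simulated data. Deep and superficial libraries of 1 animal number deviated together from their group means (r = 0.466 to 0.828 over the 9917 genes with a mean CPM of at least 8), and the labels' protocols say that both came from the same brains. Different rats carry the same number in the control and the epileptic group, but their libraries deviated together in deep CA1 (r = 0.275, 0.201 and 0.373 for numbers 1, 2 and 3). Replicates were no duplicates, with a chi-square per identifier of 6.84 to 115. That replicates are separate animals is taken from the labels. In the tests of epileptic against control rats, p-values measure the spread between 3 animals a group. In the sublayer and interaction tests the term for each rat takes up that spread. Those p-values measure how the superficial over deep difference varies between rats of a condition, pooled over all 6 rats. Identifiers named are those with the largest spread, the largest distance of 1 animal, the highest mean level or the smallest p in a sublayer test, at most 2 in each direction, those nearest the limits of the rule, and those of counts of 5 or fewer, which were chosen after their values were seen.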

Additional observations from a re-analysis of the deposited data

Results flagged for a closer look

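In 6 of the 38 members deep exceeded superficial in all 3 control rats and superficial exceeded deep in all 3 epileptic rats, a placing found in 1.28% of the 9917 genes with a mean CPM of at least 8. The reverse placing was found in 0 members. Of the named members, ENSRNOG00000005195 was placed so, with an interaction of 0.58 on the log2 scale (SE 0.10, adjusted p = 0.131 by edgeR). ENSRNOG00000007457 had an interaction of 1.56 (SE 0.62, adjusted p = 0.7349 by edgeR), which rests on 8 to 19 counts in each control library. ENSRNOG00000046452 had 1.32 (SE 0.33, adjusted p = 0.3046 by edgeR). Its superficial minus deep value in epileptic animal 1 was only 0.04 on the log2(CPM + 1) scale, at 46 against 42 counts. In another of the 6 members the values in the epileptic animals were only 0.02, 0.03 and 0.03. The direct test passed for 0 of the 6.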

How the results depend on the processing

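The rule found 40 genes with TMM-scaled library sizes, 30 with the 2 abundant identifiers kept in (25 of the 38 shared), 38 with a pseudocount of 0.5 (33 of them shared), 131 with a mean CPM of at least 1, 17 with an epileptic SD of at least 1.0 and 14 with a control SD below 0.2. Leaving out 1 animal gave 8 to 89 genes. Of sublayer calls among the members in control rats, there were 17 without a low-count filter, 17 in a fit of the control libraries alone (34 tested) and 3 to 15 without 1 animal. In epileptic rats there were 13 by DESeq2, 13 in the epileptic libraries alone and 13 to 26 without 1 animal. For the difference between conditions there were 19 without a low-count filter, where the filtered fit made 0 calls, 1 by DESeq2 and 0 to 11 without 1 animal. With no replicate block the 3 sublayer comparisons called 0, 0 and 0 members. For the fits without a low-count filter, of the control libraries alone and with no replicate block, the share over all genes is not given here. Those counts are therefore not read as a result about the members. For epileptic against control rats DESeq2 called 9 members in deep and 12 in superficial libraries, and edgeR called 0 to 26 and 0 to 25 without 1 animal. That contrast holds the values that chose the members, so nothing is read from its counts. With the replicate number as a block there was 1 call in deep and 0 in superficial CA1, where numbers 1, 2 and 3 correlated at 0.285, −0.0403 and 0.214. ENSRNOG00000005956 had a sublayer difference in epileptic rats of −0.042 without epileptic animal 2 and of 0.22 without epileptic animal 1. Over 36 tests of 16 named identifiers, 359 of 424 alternatives kept direction and call, 50 lost the call, 14 gained it and 1 turned. The cause of these shifts was not tested. Chosen after seeing the data were the sublayer values without 4 members and the order of animals under other scalings, which held for 33 members under both. With 3 animals a group, low counts in controls limit the fold changes of the 4 members close to absent there.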
